A study of Mus musculus with 12 samples.

Results

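The genes described here are 9 transcription factors of the intestinal epithelium, Barx2, Cdx1, Cdx2, Hnf4a, Hnf4g, Gata4, Gata5, Gata6 and Maf, found by their Ensembl identifiers among the 54838 genes of the count table. Barx2 was chosen by its measured level, which was lower after each single treatment than in the controls, and the other 8 were listed by name as factors of the gut, with results of these data already known. All 9 passed the filter on low counts and were among the 15938 genes tested.

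The libraries came from whole ileum, the last stretch of the small intestine, of female C57BL/6J mice aged 8 to 14 weeks. The mice drank normal water or water with 25 mM ZnSO4 for 7 days and were then injected once with PBS or with 200 µg of the synthetic glucocorticoid dexamethasone (Dex) in PBS, and ileum was taken 2 h later. This gave 4 groups of 3 mice, water + PBS (the controls), water + Dex, ZnSO4 + PBS and ZnSO4 + Dex. None of the groups received TNF, and the sources used here do not say which mice shared a cage or a day, so the p-values measure the spread between these 12 libraries. Depth was 10760132 to 11827487 counted reads per library. The treatments were visible in genes known to report them, since Mt1, the zinc-induced metallothionein gene, rose with zinc under PBS (LFC, the log2 fold change, 4.79, edgeR adjusted p = 9.07e-06) and Fkbp5, a glucocorticoid receptor target, rose with Dex in water mice (LFC 3.34, edgeR adjusted p = 2.14e-07).

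CDX1 and CDX2 are homeodomain proteins that set intestinal identity, and loss of CDX2 lets foregut genes come on in the gut. HNF4A and HNF4G are sister nuclear receptors that bind the same kind of DNA site and keep the genes of absorptive enterocytes on. GATA4, GATA5 and GATA6 are zinc finger proteins, of which GATA4 marks the proximal small intestine and GATA6 is also made in the ileum. BARX2 is a homeodomain protein of the Bar family, and MAF is a leucine zipper protein made by villus enterocytes and also by macrophages and T cells.

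The results turn on differences between related genes, which can only be read from counts if reads are not exchanged between them. Of the related pairs compared here, Hnf4a and Hnf4g are aligned below, while Cdx1 with Cdx2 and Gata5 with Gata6 are not. Barx2 and Cdx2 are shown as homeobox genes, and no result compares their levels with each other. Each stretch is 90 coding bases of the DNA-binding domain, from GENCODE transcripts on GRCm38, with capitals at the bases that differ within the pair. The homeobox stretches of Barx2 (chr9:31847047-31854193, minus strand) and Cdx2 (chr5:147302040-147303216, minus strand) each cross an intron, which is left out. The zinc finger stretches of Hnf4a (chr2:163551645-163551734, plus strand) and Hnf4g (chr3:3638124-3638213, plus strand) each lie in a single exon.
Barx2: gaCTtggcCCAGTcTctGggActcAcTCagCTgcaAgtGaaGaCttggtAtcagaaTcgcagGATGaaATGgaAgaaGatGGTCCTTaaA
Cdx2: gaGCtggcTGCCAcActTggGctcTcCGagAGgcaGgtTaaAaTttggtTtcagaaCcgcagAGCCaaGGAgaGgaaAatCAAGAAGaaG
Hnf4a: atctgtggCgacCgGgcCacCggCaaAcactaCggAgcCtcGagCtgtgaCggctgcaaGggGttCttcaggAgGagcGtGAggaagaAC
Hnf4g: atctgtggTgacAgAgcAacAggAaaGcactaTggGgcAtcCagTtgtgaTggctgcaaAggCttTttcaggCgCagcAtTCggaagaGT
Barx2 and Cdx2 had the same base at 52 of the 90 positions (57.8%), and Hnf4a and Hnf4g at 67 of 90 (74.4%). The longest run of bases shared by the whole transcripts was 12 bases for Barx2 and Cdx2 and 17 bases for Hnf4a and Hnf4g. Of all 31-base stretches in the exons of Barx2, Cdx1 and Hnf4a, 0% occurred in another gene, and the share was 0.269% for Cdx2 and 0.115% for Hnf4g. It was 7.08% for Gata5, 5.38% for Maf, 1.02% for Gata6 and 0.051% for Gata4. The genes that shared stretches with Maf included Olfr2 and Gm15655. Coordinates of genes are those of GENCODE on the same build, the build of the counts (mm10). Gata5, Maf and Gata6 lie partly across from an antisense gene, with 7.87%, 5.34% and 1.43% of their exon bases overlapped. Since the strand setting of the counting is not known, reads of the partners may be mixed in. The partners Gata5os, Gm15655 and 1010001N08Rik had few counts, with highest group means of 7.79, 0 and 62.2 after scaling to library size. The lowest group means of Gata5, Maf and Gata6 were 517, 2921 and 718.

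Barx2 (chr9:31846044-31913462, minus strand) was lower after zinc drinking and after Dex, and lowest after both. Its normalised counts, scaled to the mean library size, were 311, 398 and 343 in the water + PBS mice, and 114, 98.8 and 102 in the ZnSO4 + PBS mice. In the Dex-injected mice they were 127, 136 and 142 after normal water, and 33.2, 49.0 and 34.2 after ZnSO4. The 4 groups did not overlap in any pair, and every ZnSO4 + Dex mouse lay below every other mouse.

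Group means of Barx2 were 351 ± 44.0 in water + PBS, 135 ± 7.30 in water + Dex, 105 ± 8.07 in ZnSO4 + PBS and 38.8 ± 8.86 in ZnSO4 + Dex (SD, n = 3 each). The means after zinc, Dex and the combination were thus 29.9%, 38.4% and 11.1% of the control mean. The LFCs of the single treatments, the values for which Barx2 was listed, were -1.74 (SE 0.15) for zinc and -1.38 (SE 0.148) for Dex, and carry no test here.

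The ZnSO4 + Dex mice played no part in the listing of Barx2. Zinc lowered Barx2 in Dex-injected mice by an LFC of -1.79 (SE 0.162, edgeR adjusted p = 0.000183), and Dex lowered it in zinc-drinking mice by an LFC of -1.43 (SE 0.162, edgeR adjusted p = 0.000142). Each of these tests shares 1 group with the listing. The combination stood at an LFC of -3.17 (SE 0.164) against water + PBS. If the single effects multiplied, the combined level would be 11.5% of the control mean, beside the measured 11.1%. The interaction, which is the departure from that product, was -0.051 on the log2 scale with a 95% interval of -0.51 to 0.41 (edgeR adjusted p = 0.991), so departures of up to about that size in either direction were not detectable. Because the ileum was sequenced whole, fewer cells that make Barx2 and less Barx2 RNA per cell cannot be told apart.

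**Figure D1:**
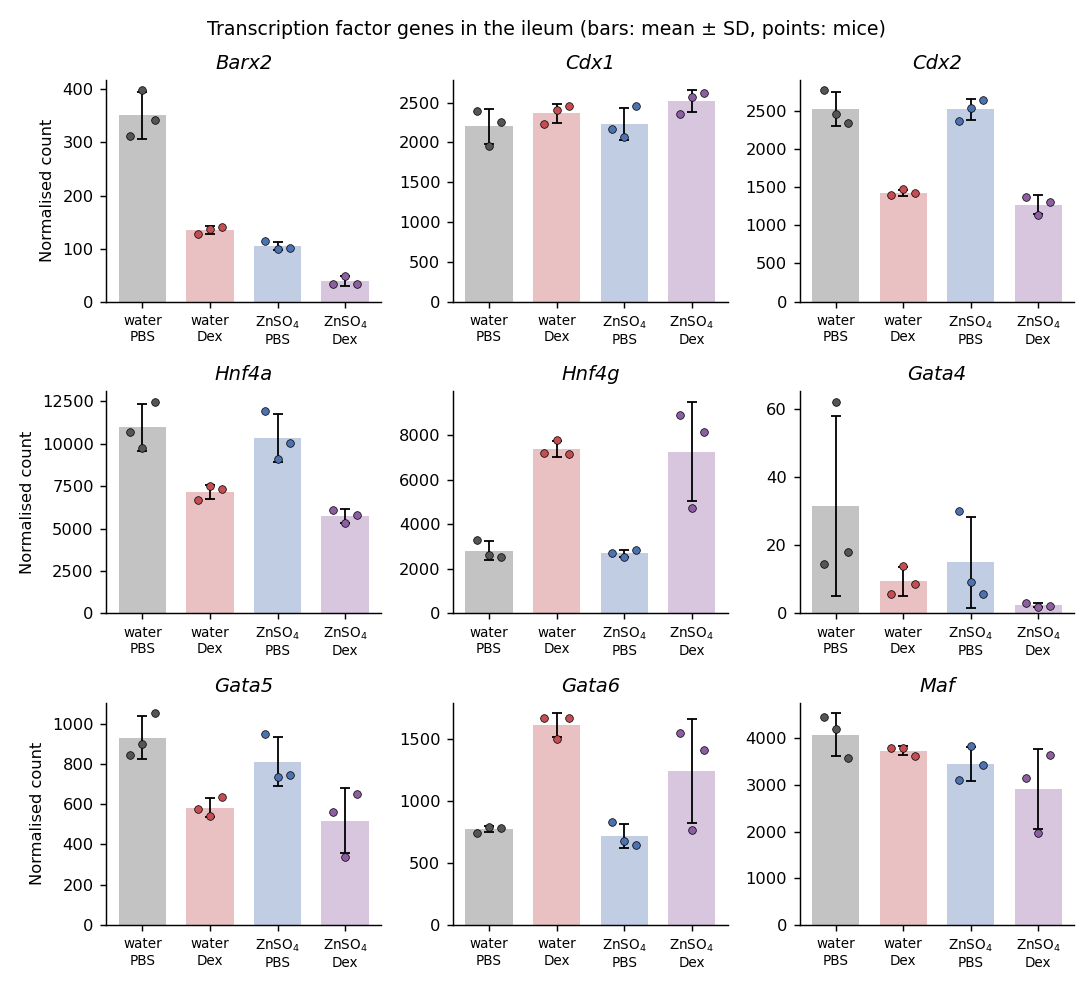
Normalised counts (vertical axes, each starting at 0) of the 9 genes in the 4 groups (horizontal axes); points are mice, bars are group means and error bars are SD, n = 3. Barx2 steps down from 351 to 38.8, Hnf4g and Gata6 stand higher in the Dex groups, and Cdx2, Hnf4a and Gata5 stand lower there.

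Counted over all 9 members with edgeR at an adjusted p under 0.05, zinc under PBS gave 0 rises and 1 fall, that of Barx2, whose listing used this comparison. Of all genes tested, 2.11% rose and 2.54% fell. Zinc under Dex likewise gave 0 rises and 1 fall, Barx2, beside 1.83% and 2.54% of all genes. Of the other 8 members, 0 were called with zinc under PBS or under Dex by edgeR or DESeq2. Barx2 included, 1 and 2 of the 9 had an unadjusted edgeR p under 0.05.

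Dex in water mice gave 2 rises, Hnf4g and Gata6, beside 5.41% of all genes, and 3 falls, Cdx2, Hnf4a and Barx2, the last of which was listed by this comparison, beside 4.51%. In the 6 zinc-drinking mice, which are separate from the 6 water-drinking mice, the same 2 genes rose, beside 6.65% of all genes, and the same 3 genes and Gata5 fell, beside 7.08%. The combination against water + PBS, which shares its controls with the single treatments, gave 2 rises (11.5% of all genes) and 5 falls (11.9%), with Gata4 added to the falls.

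As medians over the 9 members, the LFC was -0.11 for zinc under PBS, -0.61 for Dex in water mice and -0.65 for Dex in zinc mice, against -0.0125, -0.0143 and 0.0091 over all genes tested. These counts and medians describe a list drawn up with results known, and no test was made of the list as a whole.

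The pair of HNF4 genes moved in opposite directions with Dex. Hnf4a (chr2:163506808-163572910, plus strand) had normalised counts of 10691, 9762 and 12476 in the water + PBS mice and of 6699, 7511 and 7306 in the water + Dex mice. After ZnSO4 drinking they were 11912, 9079 and 10050 with PBS and 6097, 5317 and 5821 with Dex. All 6 Dex-injected mice were below all 6 PBS-injected mice.

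Hnf4a fell with Dex by an LFC of -0.61 (SE 0.125, edgeR adjusted p = 0.00845) in water mice and of -0.85 (SE 0.125, edgeR adjusted p = 0.000819) in zinc mice. Its zinc effect did not pass the test, with an LFC of -0.085 (95% interval -0.36 to 0.19) under PBS and -0.32 (-0.59 to -0.048, edgeR adjusted p = 0.183) under Dex. The 3 ZnSO4 + Dex mice were below the 3 water + Dex mice without overlap, with means of 5745 ± 396 and 7172 ± 422 (SD, n = 3).

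Hnf4g (chr3:3508030-3658052, plus strand) had normalised counts of 3297, 2616 and 2543 in water + PBS and of 7189, 7807 and 7153 in water + Dex. In ZnSO4 + PBS they were 2700, 2543 and 2854, and in ZnSO4 + Dex 8931, 4731 and 8156. Every Dex-injected mouse was above every PBS-injected mouse, and ZnSO4 + Dex replicate 2 was the lowest of the 6. Hnf4g rose with Dex by an LFC of 1.39 (SE 0.196, edgeR adjusted p = 0.000855) in water mice and of 1.43 (SE 0.196, edgeR adjusted p = 0.00051) in zinc mice. Zinc gave LFCs of -0.062 (95% interval -0.48 to 0.36) under PBS and -0.022 (-0.44 to 0.40) under Dex, neither past the test. The last of these had the opposite sign, 0.21, without ZnSO4 + Dex replicate 2 and 0.20 when libraries were scaled to epithelial markers.

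To compare the 2 genes with each other, counts were divided by exon length (RPKM, reads per kilobase scaled to library size). The ratio of Hnf4g to Hnf4a was 0.477 ± 0.0968 in water + PBS and 0.484 ± 0.0587 in ZnSO4 + PBS (SD, n = 3, as for all means here), and Hnf4a was the more abundant of the pair in each of the 6 PBS-injected mice. The ratio was 1.89 ± 0.0862 in water + Dex and 2.3 ± 0.58 in ZnSO4 + Dex, where Hnf4g was the more abundant per length in each of the 6 mice. The exon lengths, 4828 bases for Hnf4a and 2630 for Hnf4g, cover all annotated transcripts and may differ from those of the transcripts made here. Before division by length, Hnf4g was not above Hnf4a in every Dex-injected mouse. The change of the ratio between groups does not depend on the lengths used. The sum of the 2 genes was 294 ± 25.3 RPKM in water + PBS and 377 ± 18.3 RPKM in water + Dex. With zinc it was 279 ± 28.4 RPKM under PBS and 348 ± 81.8 RPKM under Dex, the last with a spread from 255 to 409.

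**Figure D2:**
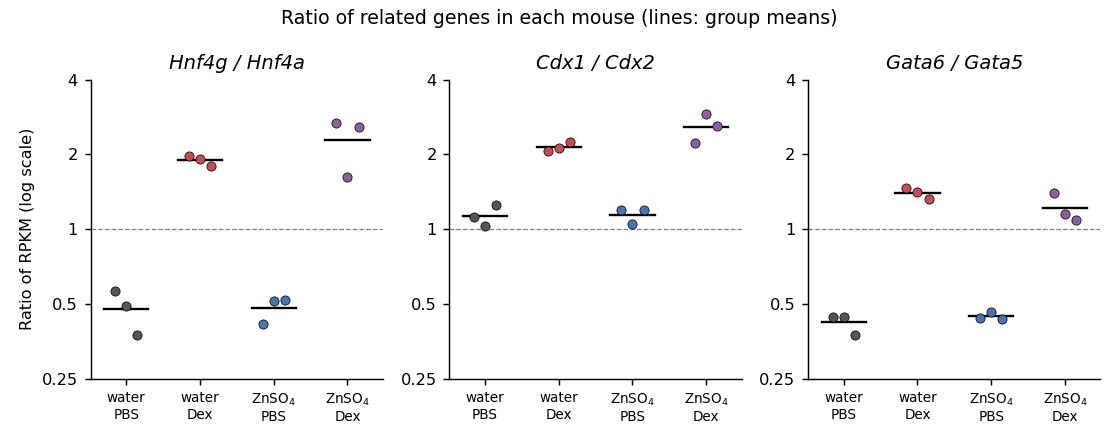
Ratio of RPKM values of related genes in each mouse (points, log scale) with the group mean as a line and equal RPKM as a dashed line. Where a ratio lies against that line depends on the exon lengths used. The ratios Hnf4g to Hnf4a and Gata6 to Gata5 lie below 1 in all 6 PBS-injected mice and above 1 in all 6 Dex-injected mice, and Cdx1 to Cdx2 lies between 1.03 and 1.25 with PBS and between 2.07 and 2.91 with Dex.

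Of the CDX pair, Cdx2 moved and Cdx1 did not pass a test. Cdx2 (chr5:147300805-147307270, minus strand) had normalised counts of 2768, 2456 and 2341 in water + PBS and of 1393, 1469 and 1417 in water + Dex. After ZnSO4 they were 2367, 2536 and 2646 with PBS and 1372, 1137 and 1302 with Dex. The Dex-injected mice were all below the PBS-injected mice.

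The fall of Cdx2 with Dex was an LFC of -0.82 (SE 0.088, edgeR adjusted p = 0.000117) in water mice and of -0.99 (SE 0.0882, edgeR adjusted p = 2.73e-05) in zinc mice. Its zinc effect under PBS was an LFC of -0.0029, with a 95% interval of -0.19 to 0.19. Under Dex it was -0.17 (-0.36 to 0.025, edgeR adjusted p = 0.338), where the groups did not overlap, and 0.089 when libraries were scaled to epithelial markers. Cdx1 (chr18:61018862-61036199, minus strand) had means of 2201 ± 223, 2363 ± 116, 2230 ± 202 and 2516 ± 138 in water + PBS, water + Dex, ZnSO4 + PBS and ZnSO4 + Dex (SD, n = 3). Its Dex effect was an LFC of 0.10 (95% interval -0.10 to 0.31) in water mice and 0.17 (-0.029 to 0.38) in zinc mice, and these intervals leave out a fall like that of Cdx2. Per length, Cdx1 and Cdx2 were near each other in the PBS groups, at ratios of 1.13 ± 0.111 and 1.15 ± 0.0839. With Dex the ratio was 2.14 ± 0.0874 after water and 2.58 ± 0.346 after ZnSO4.

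The GATA genes also split by direction. Gata6 (chr18:11052064-11085635, plus strand) had normalised counts of 743, 795 and 786 in water + PBS and of 1670, 1508 and 1672 in water + Dex. In ZnSO4 + PBS they were 831, 678 and 645, and in ZnSO4 + Dex 1555, 770 and 1411. The water groups did not overlap, while in the zinc groups ZnSO4 + Dex replicate 2 lay inside the range of the ZnSO4 + PBS mice.

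Gata6 rose with Dex in water mice by an LFC of 1.06 (SE 0.203, edgeR adjusted p = 0.00599). The rise in zinc mice was an LFC of 0.79 (SE 0.203, edgeR adjusted p = 0.0228). Of the 12 fits that each left out 1 library, 8 kept the latter call. Those without ZnSO4 + PBS replicate 2 or 3 or ZnSO4 + Dex replicate 1 or 3 did not, with adjusted p of 0.0759, 0.0811, 0.0991 and 0.0723.

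Gata5 (chr2:180325133-180334699, minus strand) was lower with Dex. Its normalised counts were 844, 900 and 1052 in water + PBS and 574, 540 and 634 in water + Dex. In ZnSO4 + PBS they were 951, 737 and 747, and in ZnSO4 + Dex 560, 338 and 653. Neither Dex group overlapped its PBS group. The LFC with Dex was -0.68 (SE 0.197) in water mice and -0.65 (SE 0.198) in zinc mice, and these near-equal sizes fell on either side of the threshold, with edgeR adjusted p of 0.0522 and 0.0495. DESeq2 gave adjusted p of 0.0148 and 0.014. The call in zinc mice held in 1 of the 12 fits that left out a library, the one without ZnSO4 + Dex replicate 3.

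The level of Gata6 per length was 0.421 ± 0.0393 times that of Gata5 in water + PBS and 0.446 ± 0.0155 times in ZnSO4 + PBS. With Dex it was 1.4 ± 0.0656 times after water and 1.21 ± 0.164 times after ZnSO4. ZnSO4 + Dex replicate 2, the lowest mouse of its group for both genes, had a ratio of 1.15, within the range of 1.09 to 1.4 of its group.

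Gata4 (chr14:63198922-63271692, minus strand), the proximal member, was scarce. The libraries held 15, 62 and 19 reads of it in water + PBS and 5, 13 and 8 in water + Dex. They held 32, 10 and 6 in ZnSO4 + PBS and 3, 2 and 2 in ZnSO4 + Dex. Its mean in the controls, 0.712 RPKM, was above that of 15.7% of the genes tested, whereas Hnf4a at 200 RPKM was above 98.7%.

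Only the combined treatment passed for Gata4, at an LFC of -3.66 (SE 0.839, edgeR adjusted p = 0.00894) against water + PBS. The summed counts were 7 against 96, a ratio of 0.0763 with an exact 95% interval of 0.0299 to 0.163 that covers counting error only. Without water + PBS replicate 2, the mouse with 62 reads, the LFC was -2.72 (edgeR adjusted p = 0.0325). That library also held the most B cell marker RNA and, with 48 reads, the most reads of the proximal enzyme gene Lct among the controls, and the part of these differences in the result was not tested.

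Maf (chr8:115682942-115707794, minus strand) passed no test. Its normalised counts were 4462, 4201 and 3582 in water + PBS, 3797, 3791 and 3622 in water + Dex, 3109, 3834 and 3418 in ZnSO4 + PBS and 3150, 1971 and 3642 in ZnSO4 + Dex. The groups overlapped in all 5 comparisons, and ZnSO4 + Dex replicate 2 was the lowest of the 12 mice. For the combination against water + PBS the LFC was -0.48 (95% interval -0.88 to -0.087, edgeR adjusted p = 0.0769). DESeq2 gave an adjusted p of 0.0439, and the fit without ZnSO4 + Dex replicate 3 gave 0.0232.

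**Figure D3:**
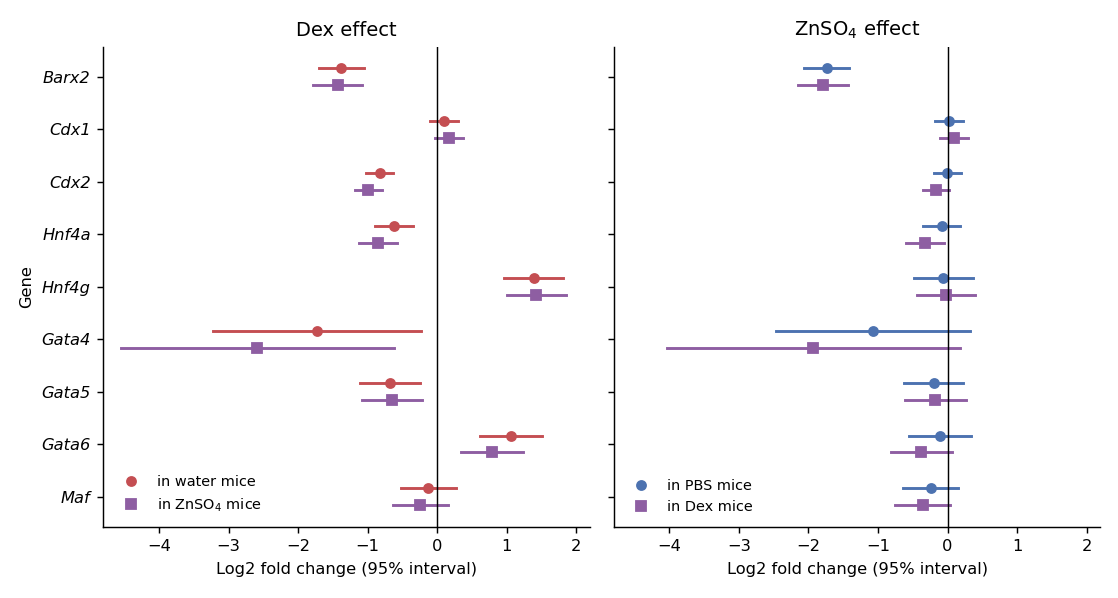
LFC (horizontal axes) with 95% intervals of the 9 genes for Dex (left panel) in water mice and in ZnSO4 mice, and for ZnSO4 (right panel) in PBS mice and in Dex mice. On the left the paired intervals of every gene overlap; on the right Barx2 lies at -1.74 under PBS, a value by which it was chosen, and at -1.79 under Dex.

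The Dex effect in water mice and that in zinc mice come from separate animals, as do the zinc effects under PBS and under Dex. No member had an interaction of zinc and Dex past the test, and none had an unadjusted p under 0.05. Over all genes the edgeR and DESeq2 interaction tests each called 0 genes, with 794 at an unadjusted edgeR p under 0.05. The estimates for the members lay between -0.86 for Gata4 and 0.072 for Cdx1, and the width of their intervals was narrowest for Cdx2 (-0.44 to 0.11) and widest for Gata4 (-3.37 to 1.65). A difference between the 2 Dex effects smaller than these intervals was therefore not detectable.

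ZnSO4 + Dex replicate 2 stood apart in its make-up. The summed normalised counts of 10 epithelial markers were 126480 in this mouse, against 150920 and 180370 in its group mates and 154430 to 182360 in the other groups. Its 18 enterocyte genes that are known to depend on HNF4, CDX or GATA factors summed to 208500, against 400050 and 470510. The summed smooth muscle markers stood at 32658, against 26084 and 22441, and ZnSO4 + PBS replicate 3 was as high, at 33015. Hnf4g, Gata5, Gata6 and Maf were each lowest of their group in this mouse, at -0.57, -0.56, -0.63 and -0.52 from the group mean on the log2 scale. Cdx2 and Hnf4a were also lowest of their group there, as was Gata4 at a normalised count of 1.92, and Barx2 was highest. Without it, Hnf4g rose with Dex in zinc mice by an LFC of 1.66, and Barx2 had an LFC of -1.64 there.

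**Figure D4:**
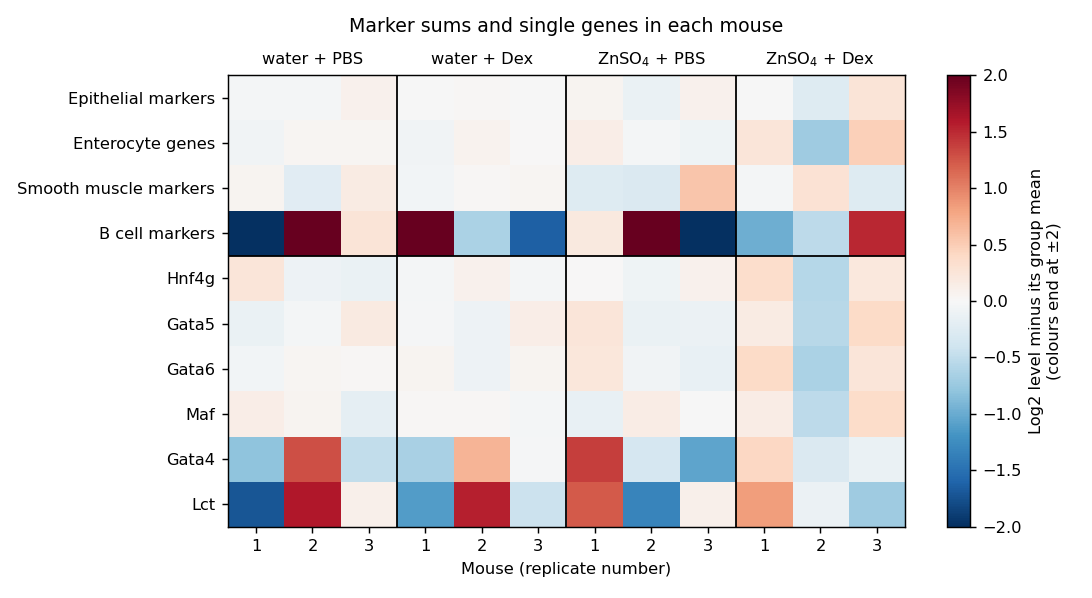
Colour gives the log2 level of each marker sum or gene in each mouse minus the mean of its group (colours end at 2 in either direction). ZnSO4 + Dex replicate 2 is blue for the epithelial and enterocyte sums and for Hnf4g, Gata5, Gata6 and Maf, and red for smooth muscle; among the sums, B cell markers vary most within groups.

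Markers of other cells also differed between the groups. B cell markers ranged from 331 to 6954 in water + PBS, 167 to 2516 in water + Dex, 132 to 5269 in ZnSO4 + PBS and 136 to 759 in ZnSO4 + Dex, and 0 of 8 passed a test with edgeR or DESeq2 in the 5 comparisons (1 at an unadjusted edgeR p under 0.05, with the combination). T cell markers were 963 to 1834 in water + PBS, 896 to 1196 in water + Dex, 454 to 1078 in ZnSO4 + PBS and 500 to 518 in ZnSO4 + Dex. With the combination 6 of 8 fell, where 11.9% of all genes fell and 7 of 9 members passed. With zinc, which lowered Barx2, Cd8a fell under PBS (LFC -1.14, edgeR adjusted p = 0.0133), and Cd8a, Cd3d and Cd3e fell under Dex (LFCs -1.41, -1.39 and -1.21). These were 1 and 3 of 8 by edgeR, beside 2.54% of all genes that fell in each comparison. DESeq2 called falls of 3 of 8 under PBS and 5 of 8 under Dex. Macrophage markers summed to 3025 to 3856 in water + PBS and 3509 to 4132 in water + Dex. They summed to 2647 to 2887 in ZnSO4 + PBS, below every water + PBS mouse with 0 of 8 past a test by edgeR or DESeq2 (3 at an unadjusted edgeR p under 0.05), and to 3228 to 3805 in ZnSO4 + Dex. With Dex in water mice 2 of 8 rose, Cd163 (LFC 1.45, edgeR adjusted p = 0.0431) and Mrc1 (LFC 0.89, edgeR adjusted p = 0.005), where 5.41% of all genes rose. In zinc mice 3 of 8 rose, Mrc1, C1qa and C1qb (LFCs 0.84, 0.43 and 0.38), where 6.65% of all genes rose. Of the M cell markers, 1 of 6 fell with Dex in water mice, Tnfaip2 (LFC -0.92, edgeR adjusted p = 0.0142), where 4.51% of all genes fell. In zinc mice 1 of 6 rose, Ccl9 (LFC 0.39, edgeR adjusted p = 0.0432), where 6.65% of all genes rose. Every marker of these lists was above 0 in most libraries; Cr2, Fcer2a, Gp2 and Sox8 were each at 0 in 1 library. The part of these differences in the levels of the 9 factors was not tested. When libraries were scaled to the epithelial markers, Barx2, Cdx2, Hnf4a, Hnf4g, Gata5 and Gata6 kept the direction of their Dex effect in water and in zinc mice, and the median of all genes then shifted, to between -0.108 and 0.272 over the 5 comparisons of groups and to 0.286 for the interaction.

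Markers of segment were mixed. Of 5 distal enterocyte genes, Slc10a2, the ileal bile acid transporter, rose with Dex in water mice (LFC 0.92, edgeR adjusted p = 0.0238) and in zinc mice (LFC 1.16, edgeR adjusted p = 0.00518), and Clec2h rose in water mice (LFC 0.71, edgeR adjusted p = 0.0403). Of 8 proximal genes, the fructose transporter gene Slc2a5 fell with Dex in water mice (LFC -0.92, edgeR adjusted p = 0.0319), and the glucose transporter gene Slc2a2 rose with Dex in zinc mice (LFC 3.80, edgeR adjusted p = 0.00433) from a mean of 48.7 ± 50.4 to 676 ± 432 normalised counts. In water mice Slc2a2 was also higher with Dex, at 344 ± 37.9 against 76.8 ± 49.7 without overlap, but did not pass edgeR's test. Of the epithelial markers, 0 of 10 passed with zinc or with Dex alone by edgeR or DESeq2 (2 and 1 at an unadjusted edgeR p under 0.05). Against water + PBS the combination raised Krt18 (LFC 0.48, edgeR adjusted p = 0.00803) and lowered Krt20 (LFC -0.58, edgeR adjusted p = 0.0462), both keratin genes, and it raised the smooth muscle gene Myh11 (LFC 0.70, edgeR adjusted p = 0.0445).

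The next list holds enterocyte genes that depend on the HNF4, CDX and GATA factors. Of 18, 1 fell and 0 rose with Dex in water mice and likewise in zinc mice (2 and 3 of 18 at an unadjusted edgeR p under 0.05; with DESeq2 1 rose and 1 fell in each), with median LFCs of 0.26 and -0.0745 beside -0.0143 and 0.0091 over all genes. These shares of falls are near those of all genes, 4.51% and 7.08%. The gene that fell in both was Tm4sf20, coding for a tetraspanin-like membrane protein, with an LFC of -0.85 (edgeR adjusted p = 0.00795) in water mice and -0.81 (edgeR adjusted p = 0.00816) in zinc mice. Like Barx2 it was also lower with zinc, at an LFC of -0.87 under PBS (edgeR adjusted p = 0.0159) and -0.84 under Dex (edgeR adjusted p = 0.0189). With zinc, 1 of the 18 rose, Tm4sf4, at an LFC of 0.58 under PBS (edgeR adjusted p = 0.0322) and 0.79 under Dex (edgeR adjusted p = 0.00752). Of all genes, 2.11% rose with zinc under PBS and 1.83% under Dex.

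Other transcription factors of the gut were read from a further list of 24 genes, 22 of which passed the filter. With zinc, 0 of 22 passed edgeR's test under PBS (6 at an unadjusted p under 0.05, 0 with DESeq2) and 0 of 22 under Dex (11 and 1), beside 2.11% of all genes that rose and 2.54% that fell under PBS, and 1.83% and 2.54% under Dex. With Dex in water mice, 1 of 22 rose and 5 fell, beside 5.41% and 4.51% of all genes. Nr5a2, a nuclear receptor of the crypt, rose (LFC 0.58, edgeR adjusted p = 0.00335), and the falls included Ascl2, the stem cell factor, at an LFC of -0.69 and the Notch target Hes1 at -0.55. In zinc mice, where 6.65% of all genes rose and 7.08% fell, 2 rose, Nr5a2 (LFC 0.53, edgeR adjusted p = 0.00426) and the epithelial factor Grhl2 (LFC 0.57, edgeR adjusted p = 0.00173), and 3 fell, among them the Wnt effector Tcf7l2 and Hes1, at LFCs of -0.47 and -0.42. In size these changes stayed below those of Hnf4g, at 1.39 and 1.43.

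Of 10 relatives of the 9 factors, 6 passed the filter. Barx1, the sister gene of Barx2, was at 0 counts in 11 of 12 libraries. Maff, a small MAF protein gene, rose with Dex in water mice (LFC 1.51, edgeR adjusted p = 3.66e-05) and in zinc mice (LFC 1.42, edgeR adjusted p = 4.77e-05). Maf itself had LFCs of -0.13 and -0.24 in the same comparisons, neither past the test.

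Genes with a pattern like that of Barx2 were sought over the 12 libraries by Pearson's r of log2 CPM (counts scaled to library size, prior count 2). The closest were Cdc6, which loads the replication helicase (r = 0.983), Lilr4b, an immune receptor gene (0.971), Ifit1bl1, of an interferon-induced family (0.961), Apol10a (0.955) and Eif1a, a translation initiation factor (0.951). All 12 points share the 4 groups, so r holds the differences between group means as well as those between mice. With zinc under PBS the LFCs of the 5 genes were -0.62, -1.07, -2.16, -1.14 and -0.60, and with Dex in water mice -0.57, -0.66, -1.07, -1.12 and -0.34, in the same order. They were picked for this likeness, so these values are a description.

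**Figure D5:**
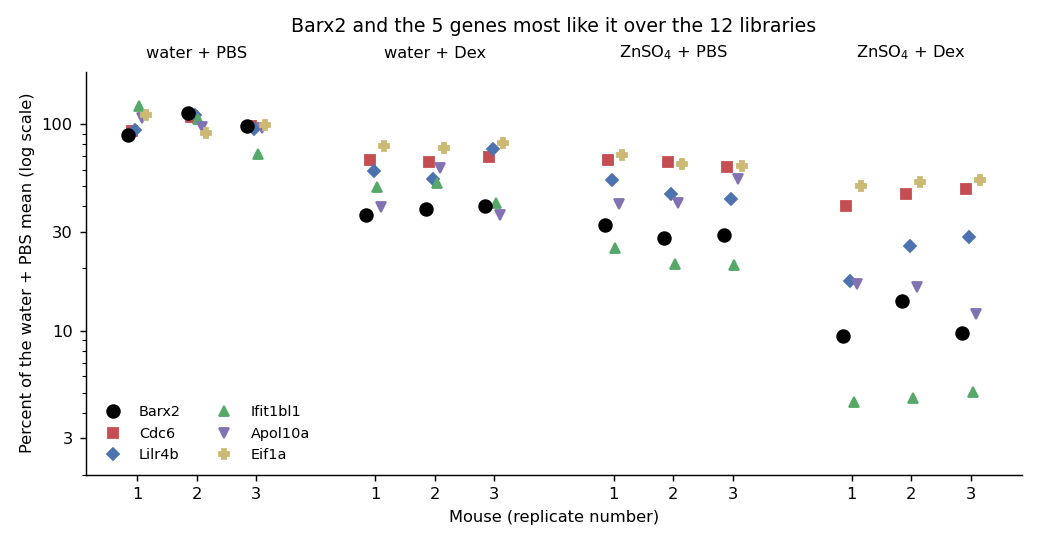
Level of Barx2 and of the 5 genes most like it in each mouse, as percent of each gene's water + PBS mean (log scale), with mice along the horizontal axis by group. Barx2 averages 11.1% in the ZnSO4 + Dex mice, with Ifit1bl1 below it and the other 4 genes above it.

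The genes most like Hnf4g were Gskip (r = 0.992), the elongation factor gene Ell2 (0.987), Cdkn1a, which codes for the cell cycle inhibitor p21 (0.986), Gna13 (0.986) and Tmem87b (0.986). Their LFCs with Dex in water mice were 1.07, 1.21, 1.67, 0.74 and 1.17, beside 1.39 for Hnf4g. With zinc under PBS they were 0.031, 0.034, -0.086, 0.0053 and 0.082, beside -0.062 for Hnf4g. A prior count of 0.5 gave the same 5 genes for Barx2 and for Hnf4g.

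Promoters are shown because Hnf4a and Cdx2 fell together with Dex on both backgrounds. The RefSeq promoter table (GRCm38.p6) matched 3 of the 9 members, Cdx2 and Gata5 with 1 window each and Hnf4a with 2, for its upstream and its internal start. The bases from 250 to 31 before the start are printed for the upstream start of Hnf4a (chr2:163506607-163506826, plus strand) and for Cdx2 (chr5:147307280-147307499, minus strand), with motif matches in capitals.
Hnf4a: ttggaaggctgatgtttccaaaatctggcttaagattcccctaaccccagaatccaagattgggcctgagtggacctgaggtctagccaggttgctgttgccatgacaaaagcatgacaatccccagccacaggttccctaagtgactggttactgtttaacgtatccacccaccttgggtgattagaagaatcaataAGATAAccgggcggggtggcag
Cdx2: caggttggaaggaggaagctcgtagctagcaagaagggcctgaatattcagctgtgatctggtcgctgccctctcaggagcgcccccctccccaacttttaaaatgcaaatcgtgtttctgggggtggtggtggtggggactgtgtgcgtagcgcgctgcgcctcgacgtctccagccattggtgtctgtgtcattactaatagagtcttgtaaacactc
In the full windows, which run to 50 bases after the start, 5 motifs were searched on both strands. These were AGAACA for the glucocorticoid receptor, CAAAGTCCA for HNF4, AGATAA for GATA factors, TTTATG for CDX factors and TTCNNNGAA, which reads the same on either strand, for STAT factors. The sole match in the 4 windows was AGATAA, 52 bases before the upstream start of Hnf4a. Of 32851 windows of this length, 19.0% held AGAACA, 11.9% TTTATG, 11.2% AGATAA, 8.3% TTCNNNGAA and 0.475% CAAAGTCCA. The GC content of the full windows was 69.7% for Gata5, 57.3% for Cdx2, and 54.0% and 57.3% for Hnf4a, against a median of 52.7%.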

How the data were processed

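Total RNA of the ileum of 12 mice was sequenced by the authors from stranded single-end libraries. The deposited values are raw counts per Ensembl gene, which the authors made with Trimmomatic, HISAT2 2.0.4 on mm10 and featureCounts, leaving out reads that map to several places; the annotation release and the strand setting are not given in the sources used here. The labels give the injection volume in ml, so it is not printed.

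From the counts, genes passing filterByExpr (minimum count 10) were fitted in edgeR 4.0.16 (R 4.3.3) with TMM factors and a mean for each of 4 groups of 3 libraries. Quasi-likelihood F tests, two-sided, were adjusted over all 15938 genes tested by Benjamini-Hochberg, and a gene passed at an adjusted p under 0.05. Normalised counts were scaled to the mean effective library size, 11377723. RPKM used exon lengths of GENCODE vM21 (GRCm38), which gave a symbol for 54809 of 54838 identifiers. The procedure was tested on simulated counts. Depth was 10760132 to 11827487 counts per library. Intervals of LFCs cover counting error and the spread between mice of a group, estimated for each gene jointly over all 4 groups. The spread in a group thus also enters comparisons that leave that group out. For Gata5 with Dex in water mice the edgeR adjusted p was 0.0522 in the main fit. It was 0.00672 when only the groups compared were fitted.

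The 9 genes and all gene lists were chosen with earlier results of these data known, so adjusted p-values are not independent evidence for the choice. Named besides the 9 were up to 3 rises and 3 falls per list and comparison, and the 5 genes most correlated with Barx2 and with Hnf4g at a mean of at least 1 CPM; examples were taken from these, and a few of them are not reported here. Alternatives were DESeq2 1.42.0, RLE and upper-quartile factors, scaling to epithelial markers, 2 other filters on low counts, the replicate number as a block, fits of only the groups compared, an LFC of 0.8 as an added cut-off, and leaving out each library.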

Additional observations from a re-analysis of the deposited data

How the results depend on the processing

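The count of members past the test stayed within 1.5 times its value in every comparison under every alternative that was run. With Dex it lay between 4 and 6 in water mice and between 4 and 7 in zinc mice, and for the combination between 6 and 8; leaving out 1 library gave 5 to 6, 4 to 6 and 6 to 7. It stayed at 1, that of Barx2, for zinc under PBS and under Dex. Barx2 was listed by zinc under PBS and by Dex in water mice, so its calls there are no support for those effects. The count stayed at 0 for the interaction, for which no fit of only the groups compared can be made.

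Of 648 values for single genes with 1 library left out, 20 lost a call, 4 gained one, 3 reversed and 621 did none of these. A change of sign counted as reversed only if a fit passed the test or the value moved by at least its main SE. Smaller changes of sign are among the 621, as for Cdx1 with zinc under PBS (LFC 0.019, range over the 12 fits -0.060 to 0.10). By this rule Cdx2 reversed with zinc under PBS without water + PBS replicate 1 (LFC 0.087, range -0.053 to 0.087). With zinc under Dex, without ZnSO4 + Dex replicate 2, Hnf4g (0.21, range -0.20 to 0.21) and Gata5 (0.056, range -0.38 to 0.056) reversed. The rise of Gata6 with the combination was lost without any 1 of the 3 water + PBS mice or without ZnSO4 + Dex replicate 1 or 3 (adjusted p 0.0707 to 0.129), and in the fit of only those groups (0.0878), as was its rise with Dex in zinc mice (0.107). The fall of Gata5 with Dex in zinc mice was lost with RLE factors (0.0513), in the fit of only those groups (0.135) and in 11 of 12 leave-one-out fits. In water mice the same Gata5 change passed with 7 alternatives, among them upper-quartile factors (0.035), and without ZnSO4 + Dex replicate 2 or 3 (0.00447 and 0.0335). The LFC of Gata4 with Dex in zinc mice, -2.59 (adjusted p 0.0832), passed with DESeq2 (0.025), with all genes of at least 1 count (0.0456) and without water + PBS replicate 2 (0.0368). With at least 10 counts asked of every library Gata4 was not tested.

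Scaling to the epithelial markers shifted the median LFC of all genes to -0.108 for Dex in water mice, 0.272 for zinc under Dex, 0.191 for Dex in zinc mice, 0.167 for the combination and 0.286 for the interaction. By the same rule it reversed 6 values, none past a test. These were zinc under Dex for Cdx2 (0.089), Hnf4g (0.20) and Gata5 (0.042), and the interaction for Barx2 (0.24), Cdx2 (0.10) and Hnf4a (0.033). The cause of these changes was not tested.

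No pairing of the mice by replicate number was seen: residuals of the 18 same-numbered pairs correlated with a median of -0.0557 (-0.359 to 0.457), those of the 36 other pairs with a median of 0.0225, and 4 of 12 libraries correlated best with their own number. With so few mice and so wide a range, this check cannot exclude a shared cage or day. With the number fitted as a block all the same, 53 of 54 values kept their side of the threshold, and Gata5 with Dex in water mice passed (LFC -0.68, adjusted p 0.0374).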
